A study of Mus musculus with 8 samples.

Results

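Interferons are cytokines that act through cell surface receptors and JAK kinases on STAT and IRF transcription factors, which bind the promoters of interferon-stimulated genes. The effectors encoded by those genes degrade, sense or modify viral nucleic acids, attack intracellular vacuoles, or carry ubiquitin and ADP-ribose to other proteins. Hematopoietic stem cells express many of them at a basal level, and interferons are known to drive these cells out of quiescence. The 36 genes described here are effectors and regulators induced by type I and type II interferons, listed by symbol. All 36 had a probe set annotated to that symbol alone, of 19938 genes measured in this way. Irf1 was the only gene of the list with more than 1 such probe set, and its brighter one was used.

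The cells were bone marrow stem cells of mice, isolated by a KSL SLAM sort, which takes lineage-negative cells with c-Kit, Sca-1 and CD150 and without CD48 and CD41. In 1 group the mice were given the neutrophil growth factor G-CSF at 125 mcg per kg under the skin 2 times a day, and samples are labelled 36 hours. The other group received phosphate-buffered saline (PBS), also for 36 hours. Each group has 4 independent samples on MoGene 1.0 ST arrays, and each sample pools cells of 5 to 10 mice. The labels used here name no strain, age or sex. All levels below are log2 of the deposited intensity, and each fold change is G-CSF over PBS on the log2 scale with its standard error. In such bulk samples, fewer cells of a type and less RNA per cell cannot be told apart.

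Of the genes behind the gate, Kit had mean log2 intensities of 10.70 after PBS and 10.35 after G-CSF. Slamf1, which encodes CD150, had 6.62 and 6.78. Cd48 and Itga2b, which encode the antigens gated out, had 7.19 and 7.39 after PBS and 7.84 and 7.50 after G-CSF. No detection calls were used, so whether a transcript was above background was not tested. Ly6a was not analysed here. PBS replicate 3 stood apart: its interquartile range over all genes was 1.68, against 2.42 to 2.80 on the other arrays, so bright genes read lower and dim genes higher on it. Markers of neutrophils, with 23 of 24 listed genes measured, summed to intensities of 7993 to 18199 in the PBS arrays and 19917 to 51945 in the G-CSF arrays. Summed markers of monocytes and macrophages overlapped between the groups, at 2770 to 8645 after PBS and 3916 to 8999 after G-CSF. So did those of plasmacytoid dendritic cells, the main interferon-producing cells, at 999.6 to 1194 and 947.9 to 1181. The latter markers include Bst2, Irf7 and Irf8, which are also counted among the interferon pathway genes below. In mean log2 intensity, the overlap of the monocyte and macrophage markers rested on PBS replicate 1. It had 7.86 and PBS replicates 2 to 4 had 6.79, 6.74 and 6.69, against 6.85 to 7.91 after G-CSF. Of these 18 markers measured, 6 were higher at an unadjusted p under 0.05 in limma's test and 0 lower, against 6.07% and 2.94% of all genes.

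The regulatory sequence that the list is known for can be read in several of its promoters. The interferon-stimulated response element, bound by complexes of IRF9 with STAT proteins and by other IRF proteins, was searched on both strands as GAAA, any 2 bases and GAAA, which reads TTTC, any 2 bases and TTTC on the opposite strand. The gamma-activated site, bound by STAT dimers, was searched as TTCNNNGAA. Matches of the 2 motifs may overlap each other. Windows ran from 250 bases before to 50 after each start site in RefSeq (GRCm38.p6), and 27 of the 36 genes had one. The response element was found for 11 of those 27 (40.7%), against 3.99% of the 27025 genes in the table. The gamma-activated site was found for 8 of 27 (29.6%), against 9.55%. The stretches below were chosen to show both elements before the start site. They are given 5′ to 3′ on the strand of the gene, with the matched letters in capitals. They lie at chr19:34640770-34640828 (Ifit1, plus strand), chr19:34583358-34583431 (Ifit3, plus strand), chr5:120907526-120907560 (Oas1a, minus strand), chr11:48871421-48871465 (Irgm1, minus strand), chr3:142559984-142560029 (Gbp3, plus strand), chr12:26456548-26456587 (Rsad2, minus strand), chr11:53769909-53769947 (Irf1, plus strand) and chr7:78913336-78913374 (Isg20, plus strand).
Ifit1: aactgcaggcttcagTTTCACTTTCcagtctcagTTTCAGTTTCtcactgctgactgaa
Ifit3: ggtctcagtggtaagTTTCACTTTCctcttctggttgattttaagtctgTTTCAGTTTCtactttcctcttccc
Oas1a: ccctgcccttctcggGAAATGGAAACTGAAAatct
Irgm1: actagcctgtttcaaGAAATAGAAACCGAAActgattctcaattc
Gbp3: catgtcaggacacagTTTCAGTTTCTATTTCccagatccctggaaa
Rsad2: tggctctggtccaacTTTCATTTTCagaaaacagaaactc
Irf1: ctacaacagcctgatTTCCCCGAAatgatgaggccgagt
Isg20: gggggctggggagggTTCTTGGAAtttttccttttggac

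The first 6 stretches hold the response element and the last 2 the gamma-activated site. Ifit1 and Ifit3 carry 2 separate matches each, whereas in Oas1a, Irgm1 and Gbp3 the 2 matches overlap and share letters. These are matches of letters, not measured binding. The 11 genes with a response element had a median log2 fold change of 0.17 and the 16 without one 0.15. Without PBS replicate 3 the medians were -0.09 and 0.04.

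No effector gene passed the threshold after G-CSF. At an adjusted p under 0.05 in limma's test over all 19938 genes, 0 of 36 were higher and 0 were lower, where 0.0953% of all genes were called, all of them higher. The adjusted p of the 36 ran from 0.517 to 0.994. At an unadjusted p under 0.05, 1 gene was higher, Ifi35, against 6.07% of all genes, and 0 were lower, against 2.94%. The 4 G-CSF values lay apart from the 4 PBS values for 0 of the 36 in either direction, against 6.15% of all genes (3.37% higher and 2.78% lower). The fold changes ran from -0.69 for Usp18 to 0.59 for Lgals3bp, with a median of 0.04, beside -0.07 over all genes and 0.13 over the 9969 brighter genes. They were positive for 20 of 36 genes (55.6%), against 41.7% of all genes. Among the 31 that belong to the brighter genes, 20 were positive (64.5%), against 66.5% of those genes. With every array included, the share among the brighter genes thus lay close to the background. The counts moved with 1 array. Without PBS replicate 3, 14 of the 36 were positive and 22 negative, with a median of -0.06. In that fit 46.9% of all genes and 58.1% of the brighter genes were positive. The positive share of the 36 was then below both backgrounds, and the 31 brighter ones were not counted separately there.

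The intervals set a bound on what these arrays could miss. For 27 of the 36 genes (75%) the 95% interval lay within a log2 fold change of -1 to 1, that is, below a 2-fold change either way, against 82.4% of all genes on all 8 arrays. The 9 genes whose interval reached past that bound were Usp18, Isg20, Rsad2 and Mx2 on the lower side and Lgals3bp, Oas2, Irf1, Irf9 and Trim21 on the higher side. Without PBS replicate 3 the count was again 27, against 89.3% of all genes, but not of the same genes. Irf1, Irf9, Trim21 and Lgals3bp then came inside the bound, whereas Ifit1, Ifit3, Iigp1 and Rtp4 reached past it on the lower side. For the genes past the bound the arrays could not show a 2-fold difference in that direction to be absent.

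**Figure D1:**
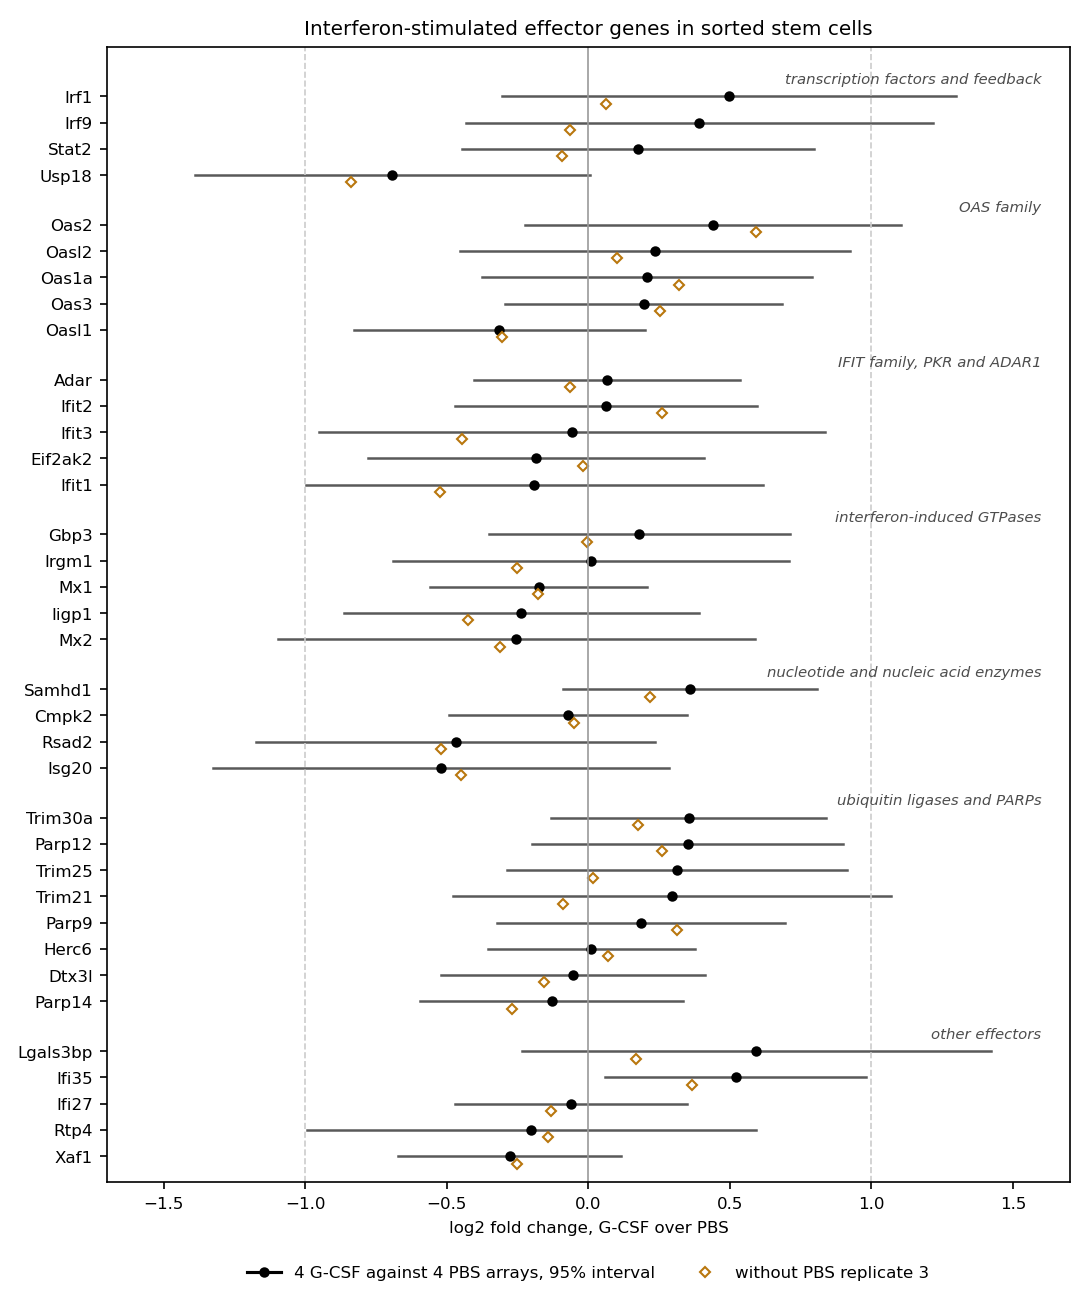
Log2 fold change of G-CSF over PBS for the 36 genes by role, with dots and lines for the estimate and 95% interval from 4 against 4 arrays and open diamonds for the estimate without PBS replicate 3. The interval of Ifi35 alone lies clear of 0, the diamonds of Irf1, Irf9 and Trim21 move close to 0, and dashed lines mark a 2-fold change.

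Irf1, Irf9 and Stat2 encode transcription factors of the pathway. IRF9 and STAT2 belong to the complex that binds the response element, while IRF1 is induced by interferon gamma and activates many of the same genes. Irf1 had log2 intensities of 7.71, 7.74, 5.98 and 7.70 in PBS replicates 1 to 4, and 7.51, 7.62, 8.10 and 7.89 in G-CSF replicates 1 to 4. PBS replicate 3 was the low array, and the other PBS values lay within the range of the G-CSF values. The log2 fold change of Irf1 was 0.50 ± 0.36 SE (limma adjusted p = 0.622) and 0.06 ± 0.17 SE without that array. The second probe set of Irf1 had -0.05 ± 0.46 SE in a fit over all probe sets.

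Irf9 followed the same course, with 7.19, 7.57, 5.57 and 7.42 after PBS and 7.18, 7.52, 7.43 and 7.19 after G-CSF. The G-CSF values lay close to those of PBS replicates 1, 2 and 4, and PBS replicate 3 was far below them. Its log2 fold change was 0.39 ± 0.38 SE (limma adjusted p = 0.679) and -0.06 ± 0.16 SE without PBS replicate 3. Stat2 had 7.49, 7.28, 6.35 and 7.50 after PBS and 6.82, 7.49, 7.69 and 7.33 after G-CSF. The groups overlapped, the low arrays being PBS replicate 3 and G-CSF replicate 1. The log2 fold change of Stat2 was 0.17 ± 0.28 SE (limma adjusted p = 0.793) and -0.09 without PBS replicate 3, so the sign of these 2 factors rests on that array.

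Usp18 removes ISG15 from proteins and blocks signalling at the type I receptor, and it had the lowest fold change of the list. Its log2 intensities were 5.90, 6.62, 6.02 and 7.30 after PBS and 5.46, 5.64, 5.58 and 6.38 after G-CSF. Of the G-CSF arrays, 3 lay below every PBS array, and replicate 4 lay among them. The difference was -0.69 ± 0.32 SE on the log2 scale, or 1.62-fold higher after PBS, and did not pass (limma adjusted p = 0.551, unadjusted p = 0.0516). Without PBS replicate 3 it was -0.84 ± 0.33 SE (limma adjusted p = 0.503, unadjusted p = 0.0315), the 1 gene of the list then at an unadjusted p under 0.05, where 3.12% of all genes were lower and 5.64% higher at that level.

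The OAS enzymes make 2′-5′-linked oligoadenylate on double-stranded RNA and so activate RNase L. Oas2 had 6.63, 6.80, 7.36 and 6.81 after PBS and 6.58, 7.14, 8.12 and 7.51 after G-CSF. G-CSF replicate 3 was the highest array and replicate 1 the lowest of all 8. For Oas2 the log2 fold change was 0.44 ± 0.30 SE (limma adjusted p = 0.611). Oas1a had 6.74, 7.04, 7.57 and 7.57 after PBS and 7.04, 7.11, 7.97 and 7.63 after G-CSF, with a log2 fold change of 0.21 ± 0.27 SE. Oas3 had 0.19 ± 0.22 SE and Oasl2 0.23 ± 0.31 SE. Oas1a had 0.32 and Oasl2 0.10 without PBS replicate 3. Oasl1, which is known to restrain translation of Irf7, had the opposite sign. Its values were 6.56, 6.70, 6.90 and 7.33 after PBS and 6.82, 6.03, 6.80 and 6.58 after G-CSF. PBS replicate 4 was the highest array and G-CSF replicate 2 the lowest, the others overlapped, and the log2 fold change was -0.32 ± 0.23 SE (limma adjusted p = 0.624). Oas1a, Oas2, Oas3 and Oasl2 kept a positive value in each of the 19 alternatives run, and Oasl1 a negative one in 18 of 19. Some of these alternatives, such as other moderation or the replicate block, cannot change the estimate, so a kept sign there carries no information. Oas1a belongs to a cluster of close paralogs, whose transcripts may share its probes.

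The IFIT proteins bind RNA that lacks the methylated cap of the host, PKR (Eif2ak2) halts translation on double-stranded RNA, and ADAR1 (Adar) edits adenosines in such RNA. Ifit1 had 5.56, 6.96, 4.81 and 5.90 after PBS and 5.48, 5.83, 5.43 and 5.72 after G-CSF. The G-CSF values were close together (SD 0.19, n = 4), whereas PBS values spread more widely (SD 0.90, n = 4), with replicate 2 high and replicate 3 low. Ifit1 had a log2 fold change of -0.19 ± 0.37 SE, with a 95% interval of -0.998 to 0.616. Ifit3 spread as widely after PBS (SD 0.96, n = 4), but its highest array there was replicate 1 with 6.99, so the 2 genes did not peak in the same sample. Its log2 fold change was -0.06 ± 0.41 SE. Ifit2 had 0.06 ± 0.24 SE, Eif2ak2 -0.19 ± 0.27 SE and Adar 0.07 ± 0.21 SE. Without PBS replicate 3, Ifit1 had -0.52 and Ifit3 -0.45, with intervals that reached -1.20 and -1.16, while Ifit2 had 0.26, Eif2ak2 -0.02 and Adar -0.07.

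Among the interferon-induced GTPases, the Mx proteins trap viral nucleocapsids, the guanylate-binding proteins disrupt pathogen vacuoles, and the IRG proteins Irgm1 and Iigp1 control and carry out such disruption. Mx1 had 3.57, 3.59, 3.51 and 3.41 after PBS and 3.36, 3.34, 3.64 and 3.03 after G-CSF. Mx1 was not among the 9969 brighter genes, and its groups overlapped, with a log2 fold change of -0.18 ± 0.17 SE (limma adjusted p = 0.687). The RefSeq gene table of the C57BL/6J mouse lists Mx1 and Mx2 as transcribed pseudogenes. Mx2 reached 5.87 in PBS replicate 4 and 5.46 in G-CSF replicate 3, against 4.10 to 4.62 on the other 6 arrays, and its log2 fold change was -0.25 ± 0.38 SE. Gbp3 had 0.18 ± 0.24 SE, Irgm1 0.01 ± 0.32 SE and Iigp1 -0.24 ± 0.29 SE. Irgm1 is required for stem cells to withstand interferon in mice, and its values of 6.36 to 7.66 after PBS spanned 6.72 to 7.74 after G-CSF for all but G-CSF replicate 3. Without PBS replicate 3 all 5 GTPases had a negative log2 fold change, from -0.42 to -0.01.

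Rsad2 encodes viperin, which makes a chain-terminating nucleotide, and its neighbour Cmpk2 a mitochondrial nucleotide kinase. Rsad2 had 6.73, 7.03, 7.02 and 7.91 after PBS and 6.35, 6.31, 6.59 and 7.55 after G-CSF. G-CSF replicates 1 to 3 lay below every PBS array, and replicate 4 lay above 3 of them. Rsad2 had a log2 fold change of -0.47 ± 0.32 SE (limma adjusted p = 0.609), and that of Cmpk2 -0.07 ± 0.19 SE. In both groups replicate 4 was the highest array for Rsad2 and for Usp18, whereas Cmpk2 was highest in PBS replicate 1 and G-CSF replicate 3.

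Isg20, a nuclease that degrades single-stranded RNA, had 6.78, 8.80, 8.24 and 8.27 after PBS and 7.29, 7.32, 7.91 and 7.47 after G-CSF. Every G-CSF array lay below PBS replicates 2 to 4, but PBS replicate 1 was the lowest of all 8. Isg20 thus had a log2 fold change of -0.52 ± 0.37 SE (limma adjusted p = 0.614). Samhd1, which hydrolyses deoxynucleotides, had 0.36 ± 0.20 SE (limma adjusted p = 0.579), and 0.22 without PBS replicate 3. Samhd1 had 9.34, 9.48, 8.89 and 9.54 after PBS and 9.58, 9.99, 9.74 and 9.39 after G-CSF. G-CSF replicates 1 to 3 lay above every PBS array, and replicate 4 fell among them.

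**Figure D2:**
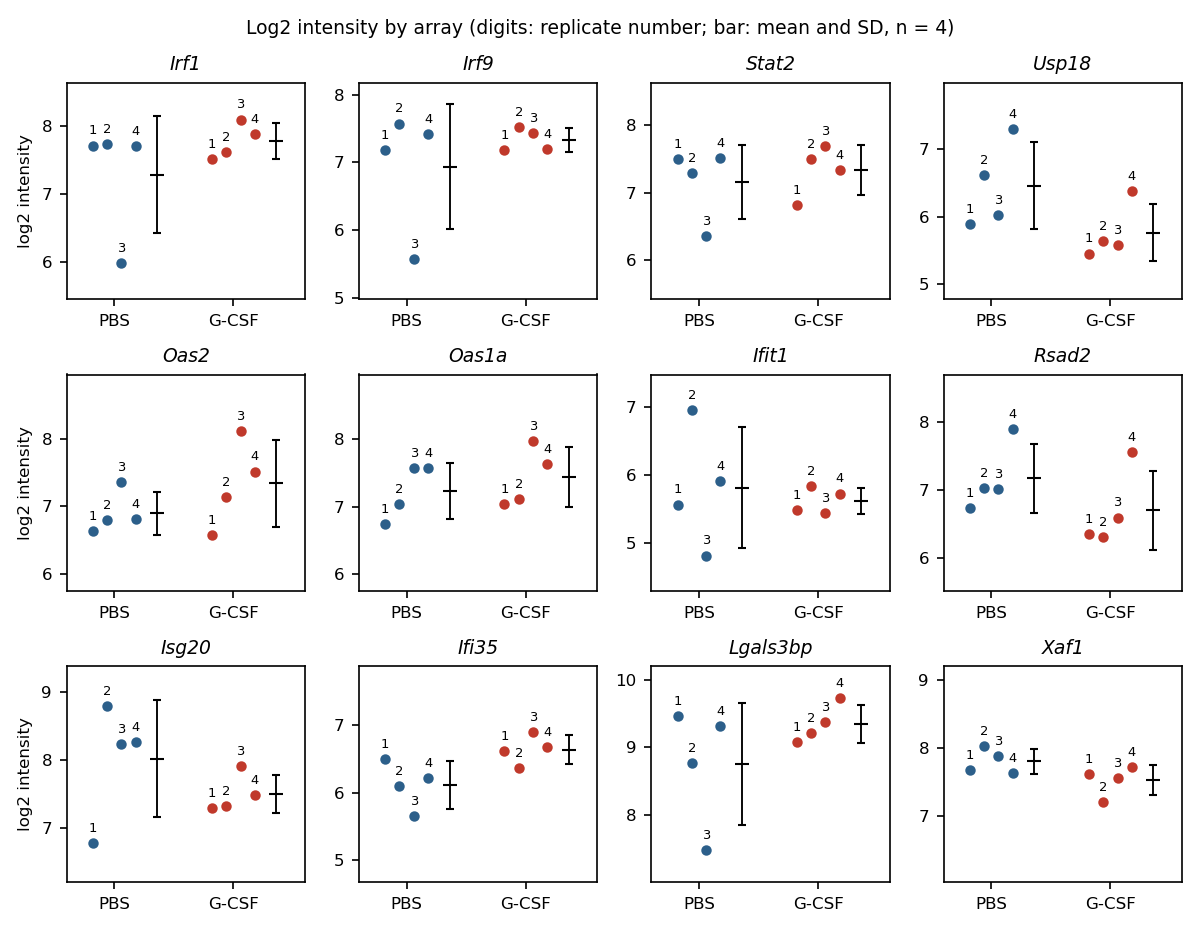
Log2 intensity of 12 of the genes on each array, with PBS in blue, G-CSF in red, digits for replicate numbers and bars for the mean and SD of 4 arrays. The groups overlap in every panel, and PBS replicate 3 is the low array for Irf1, Irf9, Stat2, Ifit1, Ifi35 and Lgals3bp.

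Trim21, Trim25 and Trim30a encode TRIM proteins, of which TRIM25 ubiquitinates the RNA sensor RIG-I and TRIM21 binds antibody inside cells. Herc6 is a mouse ligase of ISG15. Dtx3l and Parp9 encode a ubiquitin ligase and its ADP-ribosylating partner and lie beside Parp14 in the genome. Of these 8 genes of ubiquitin and ADP-ribose transfer, with Parp12, 6 had a positive value and 0 passed. Trim30a had 8.64, 9.05, 8.25 and 9.20 after PBS and 9.19, 9.01, 9.02 and 9.33 after G-CSF. Its G-CSF values lay within 0.32 of one another and around the upper PBS values, with a log2 fold change of 0.35 ± 0.22 SE (limma adjusted p = 0.592), and 0.17 without PBS replicate 3. Parp12 had 7.42, 6.93, 6.75 and 6.99 after PBS and 7.57, 6.69, 7.44 and 7.78 after G-CSF, with a log2 fold change of 0.35 ± 0.25 SE.

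Trim21 had 8.03, 7.48, 6.08 and 7.33 after PBS and 7.11, 7.71, 7.66 and 7.62 after G-CSF. The low array was again PBS replicate 3, without which the log2 fold change of Trim21 was -0.09 in place of 0.30 ± 0.35 SE. Trim25 was nearly constant after G-CSF (7.81 ± 0.07, SD, n = 4) and moved from 0.31 to 0.02 without PBS replicate 3. The 3 neighbours had small values, with 0.19 ± 0.23 SE for Parp9, -0.06 ± 0.21 SE for Dtx3l and -0.13 ± 0.21 SE for Parp14. These were 0.31, -0.16 and -0.27 without PBS replicate 3. Herc6 had 0.01 ± 0.17 SE, and its 95% interval of -0.35 to 0.37 was the narrowest of the list.

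Ifi35 encodes an interferon-induced leucine zipper protein. Its values were 6.50, 6.09, 5.65 and 6.22 after PBS and 6.61, 6.36, 6.89 and 6.68 after G-CSF. Of the G-CSF arrays, 3 lay above every PBS array, and G-CSF replicate 2 lay below PBS replicate 1. The log2 fold change of Ifi35 was 0.52 ± 0.21 SE (unadjusted p = 0.0305, limma adjusted p = 0.517) and 0.37 ± 0.17 SE without PBS replicate 3 (unadjusted p = 0.0574).

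Lgals3bp, a secreted galectin-binding glycoprotein, had 9.46, 8.76, 7.48 and 9.32 after PBS and 9.08, 9.21, 9.37 and 9.73 after G-CSF. Its log2 fold change of 0.59 ± 0.38 SE was the highest of the list, and it was 0.17 ± 0.21 SE without PBS replicate 3. The pro-apoptotic Xaf1 had 7.68, 8.02, 7.88 and 7.63 after PBS and 7.62, 7.20, 7.56 and 7.72 after G-CSF. Of the G-CSF arrays, 3 lay below every PBS array, and the log2 fold change was -0.28 ± 0.18 SE (limma adjusted p = 0.599). Rtp4, a chaperone of membrane receptors, had 8.20, 7.38, 8.20 and 8.31 after PBS and 6.71, 7.81, 8.46 and 8.30 after G-CSF, and the low arrays were PBS replicate 2 and G-CSF replicate 1. Rtp4 had a log2 fold change of -0.20 ± 0.36 SE. Ifi27, a small hydrophobic protein, had -0.06 ± 0.19 SE, and -0.13 without PBS replicate 3.

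The array-to-array spread of the 36 genes can be set beside that of the brighter genes, to which 31 of them belong. The median range over the 8 arrays was 1.32 log2 units for the 36 genes, against 0.97 for all genes and 1.08 for the brighter genes. The median SD was 0.43 among PBS arrays, 0.29 without PBS replicate 3, and 0.28 among G-CSF arrays, where the brighter genes had 0.38, 0.27 and 0.24 and all genes 0.34, 0.20 and 0.22. PBS replicate 3 was the lowest PBS array for 19 of the 36 genes, against 27% of all genes, and for 17 of the 31 brighter ones, against 49.6% of the brighter genes. G-CSF replicate 1 was the lowest G-CSF array for 21 of 36, against 25% of all genes and 36.1% of the brighter ones, and G-CSF replicate 3 the highest for 18 of 36, against 25.5% of all genes. The mean over the 36 genes was 7.00, 7.21, 6.73 and 7.31 in PBS replicates 1 to 4 and 6.88, 7.00, 7.32 and 7.22 in G-CSF replicates 1 to 4. The PBS and G-CSF means were thus interleaved.

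**Figure D3:**
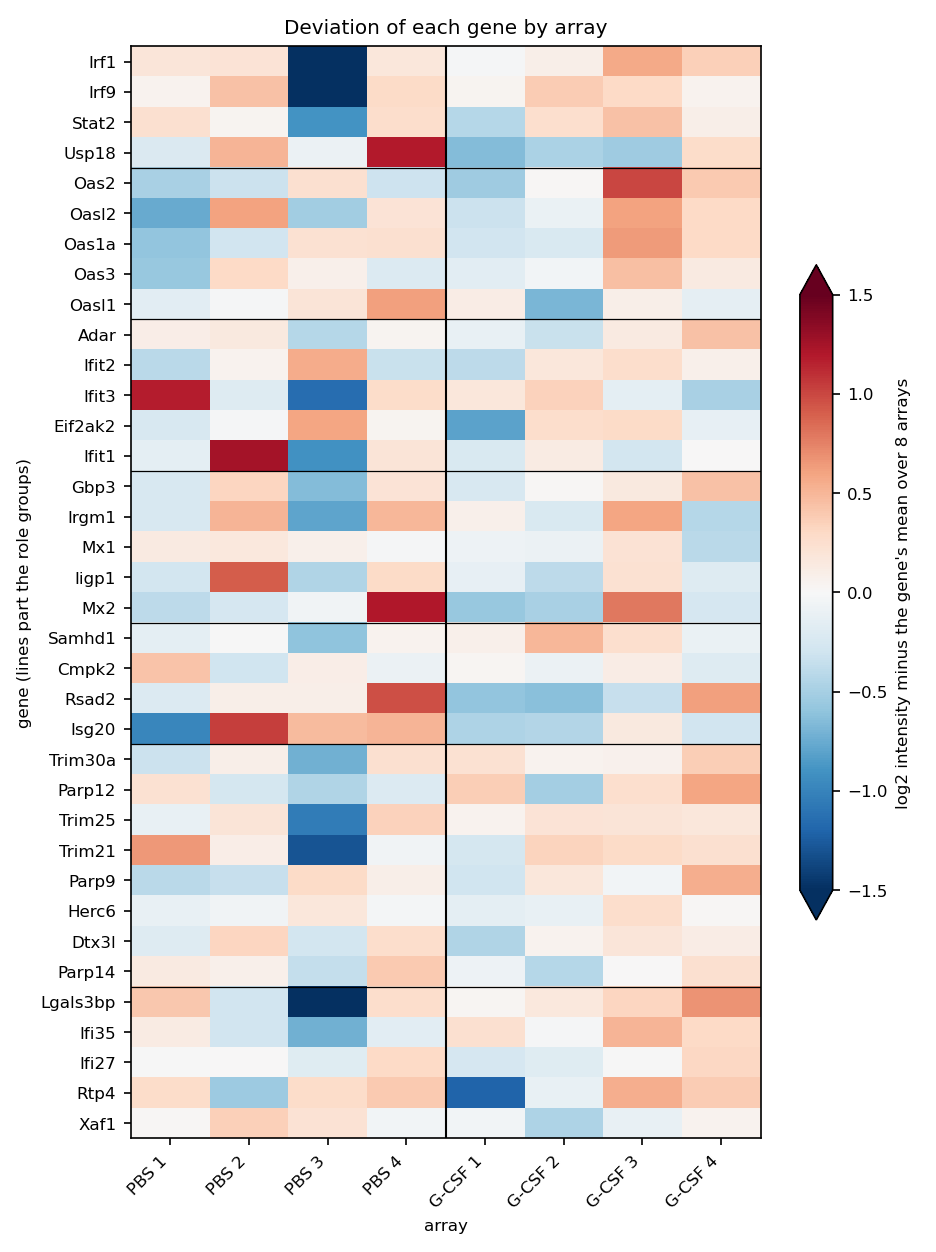
Log2 intensity of each of the 36 genes on each array, minus the mean of that gene over the 8 arrays (red above, blue below), with lines between the role groups and between PBS and G-CSF arrays. PBS replicate 3 is blue for Irf1, Irf9, Trim21 and Lgals3bp, and G-CSF replicate 3 is red for Oas1a, Oas2, Oas3 and Oasl2.

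Neutrophil markers moved with the groups and, within the G-CSF group, against the OAS genes and some other role groups. The mean log2 intensity of the 23 neutrophil markers was 7.88, 6.91, 7.37 and 7.09 in PBS replicates 1 to 4 and 10.04, 10.00, 8.01 and 8.63 in G-CSF replicates 1 to 4. The mean of the 5 OAS genes was 6.48, 7.05, 7.04 and 7.10, then 6.75, 6.78, 7.55 and 7.19. The arrays with the highest neutrophil markers in each group, G-CSF replicates 1 and 2 and PBS replicate 1, thus had the lowest OAS means of their group. This was not particular to the OAS genes. In G-CSF replicates 1 to 4 the ubiquitin ligases and PARPs had means of 7.64, 7.68, 7.86 and 7.99. The mean of 13 genes listed as stem cell sort markers was 8.37, 8.52, 8.54 and 8.83 there, but these genes did not move together. Cd48, which the gate excludes, had 7.31, 7.24, 7.85 and 8.95, and Itga2b, also excluded, 7.64, 7.74, 7.18 and 7.42. Kit had 10.40, 10.49, 10.24 and 10.26, and Slamf1 7.14, 7.16, 6.05 and 6.76. The group of IFIT genes, Eif2ak2 and Adar did not follow, with 6.26, 6.65, 6.59 and 6.52. The interferon-induced GTPases had 5.56, 5.51, 6.14 and 5.58, so that replicate 4 lay close to replicates 1 and 2. With the neutrophil mean of each array as a covariate, 31 of the 36 genes had a positive value, against 43.6% of all genes and 65.6% of the brighter ones, with a median of 0.42, against -0.07 over all genes. Of them, 4 were then higher at an unadjusted p under 0.05, against 3.22% of all genes, namely Oas2 with 1.41 ± 0.39 SE, Oasl2 with 1.24 ± 0.40 SE, Oas1a with 1.03 ± 0.36 SE and Oas3 with 0.79 ± 0.33 SE. None passed over all genes (lowest limma adjusted p = 0.683), and 0 of the 19938 genes did in that fit. Every G-CSF array had a higher neutrophil mean than every PBS array, so the covariate and the treatment can be told apart only through the spread within groups.

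Of 100 further pathway genes measured, 2 passed the threshold, both higher after G-CSF, against 0.0953% of all genes. Upstream of the effectors, the receptor chains had a higher median than the effectors. Of the 6 measured receptor genes 0 passed over all genes. At an unadjusted p under 0.05, 4 were higher after G-CSF, against 6.07% of all genes. The median log2 fold change of the 6 was 0.83, or 0.55 without PBS replicate 3, where the brighter genes had 0.13 on all 8 arrays. Ifngr2, the signalling chain of the interferon gamma receptor, had 7.73, 6.63, 5.62 and 7.57 after PBS and 8.28, 8.49, 8.25 and 8.01 after G-CSF. The G-CSF values lay above all PBS values, with a log2 fold change of 1.37 ± 0.39 SE (limma adjusted p = 0.331), and 0.95 without PBS replicate 3. Ifnar2 and Ifnar1, the chains of the type I receptor, had 0.96 ± 0.30 SE and 0.49 ± 0.16 SE (limma adjusted p = 0.387 and 0.393), and their groups did not overlap either. Of all genes, 3.37% were higher with no overlap. Il10rb, shared by the receptors of interleukin 10 and interferon lambda, had 1.14 ± 0.41 SE, and 0.75 without PBS replicate 3. Ifngr1 had 0.70 ± 0.38 SE and Ifnlr1 -0.16 ± 0.22 SE, which without that array were 0.37 and 0.04. With the neutrophil covariate the receptor median was 0.31.

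The kinases that bind these receptors had values closer to 0. Jak1 had a log2 fold change of -0.01 ± 0.18 SE, Jak2 0.21 ± 0.23 SE and Tyk2 0.07 ± 0.27 SE. Of the 9 kinases and IRF factors measured 0 passed. At an unadjusted p under 0.05, 1 was higher, Irf3, against 6.07% of all genes, with 0.37 ± 0.17 SE (limma adjusted p = 0.546). Irf7, itself an interferon-stimulated gene and the amplifier of interferon alpha production, had 6.18, 6.00, 5.87 and 6.05 after PBS and 5.83, 6.95, 6.54 and 6.06 after G-CSF. The lowest array of all 8 and the highest were both from the G-CSF group, with a log2 fold change of 0.32 ± 0.24 SE (limma adjusted p = 0.627).

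Of 10 inhibitors of interferon signalling, 1 rose, Socs3, which acts on cytokine receptors and is a target of STAT3. Its values were 5.99, 6.04, 6.17 and 6.40 after PBS and 7.27, 7.47, 7.55 and 7.75 after G-CSF, with no overlap (log2 fold change 1.36 ± 0.18 SE, limma adjusted p = 0.0198). Socs1, the main inhibitor of JAK kinases after interferon gamma, had 0.22 ± 0.18 SE. Ptpn1, a phosphatase of JAK2 and TYK2, had 6.56, 6.60, 6.57 and 6.38 after PBS and 7.24, 7.49, 7.06 and 7.27 after G-CSF. The groups did not overlap, yet Ptpn1 did not pass over all genes (0.74 ± 0.16 SE, limma adjusted p = 0.202). Of 13 sensors of nucleic acids and their kinases, 1 rose, Sting1, the adaptor of the cytosolic DNA sensor cGAS, and 0 fell. Sting1 had 6.70, 7.19, 6.73 and 6.92 after PBS and 8.22, 8.04, 8.44 and 8.73 after G-CSF, also with no overlap (log2 fold change 1.47 ± 0.20 SE, limma adjusted p = 0.0198). Sting1 no longer passed when PBS replicate 1 or 4 or any G-CSF replicate was left out (limma adjusted p = 0.0516 to 0.0934), nor did Socs3 without G-CSF replicate 2 or 4 (limma adjusted p = 0.0911 and 0.0748). With all probe sets in the fit neither passed (limma adjusted p = 0.1224 for Sting1 and 0.1197 for Socs3), nor with the neutrophil covariate (limma adjusted p = 0.279 for Sting1 and 0.348 for Socs3).

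The 16 interferon genes measured all had negative values, with a median log2 fold change of -0.25, and 0 passed. Of all genes 58.3% were negative, and of the 9969 genes outside the brighter ones, which hold 11 of the 16, 83.0% were negative. The median was -0.15, and 1 of the 16 positive, without PBS replicate 3. Their mean level was 4.86 to 5.14 in the PBS arrays, highest in PBS replicate 3, and 4.53 to 4.89 in the G-CSF arrays. Ifna2 was the 1 at an unadjusted p under 0.05, where 2.94% of all genes were lower at that level. It had -0.90 ± 0.27 SE (limma adjusted p = 0.352), while Ifnb1 had -0.21 ± 0.19 SE and Ifng -0.10 ± 0.16 SE.

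Of a further 49 interferon-stimulated genes measured, 0 were past the threshold. Of them, 27 were positive, against 41.7% of all genes and 66.5% of the brighter ones. Their median log2 fold change was 0.05, beside -0.07 over all genes and 0.13 over the brighter ones. At an unadjusted p under 0.05, 6 were higher and 1 lower, against 6.07% and 2.94% of all genes. The membrane proteins Ifitm1 and Ifitm2 had 1.05 ± 0.20 SE and 1.17 ± 0.35 SE (limma adjusted p = 0.118 and 0.352), and Ifitm2 had 0.75 without PBS replicate 3. The Schlafen genes Slfn1 and Slfn2 had 1.80 ± 0.50 SE and 1.30 ± 0.30 SE (limma adjusted p = 0.318 and 0.208). Slfn1 was 8.16 and 8.44 in G-CSF replicates 1 and 2, where neutrophil markers were highest, against 6.57 and 5.96 in replicates 3 and 4 and 4.88 to 6.11 after PBS. With the neutrophil covariate Slfn1 had 0.05 and Slfn2 0.26, whereas Ifitm1 had 1.16 and Ifitm2 1.07. The source of this difference was not tested. The lysosomal thiol reductase Ifi30 had 1.12 ± 0.29 SE and Cd274, which encodes PD-L1, 0.62 ± 0.25 SE. The GTPase Gbp4 had the opposite sign with -0.88 ± 0.24 SE (limma adjusted p = 0.303).

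**Figure D4:**
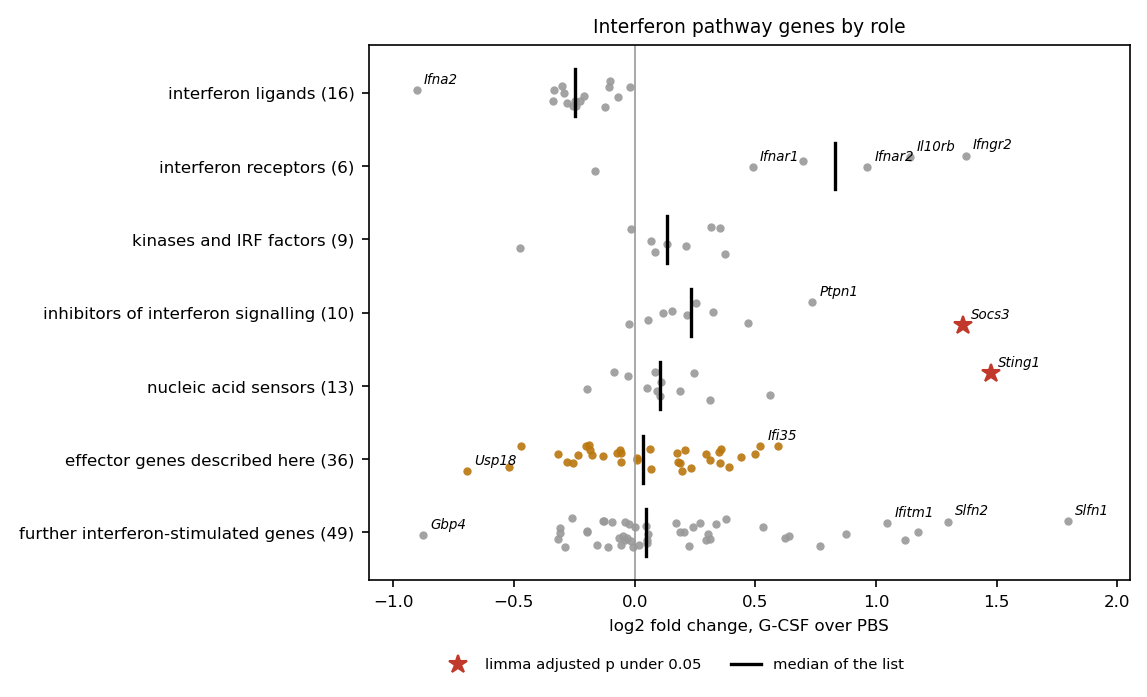
Log2 fold change of G-CSF over PBS for genes of the interferon pathway by role, with the number measured in brackets, 1 dot per gene, black bars for the median of each list, and stars for genes past the threshold. The effectors (orange) lie around 0, between -0.69 and 0.59, the 4 labelled receptor chains lie between 0.49 and 1.37, and the stars are Socs3 and Sting1.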

How the data were processed

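Each array has a deposited linear intensity for every probe set. The submitters' processing notes name RMA, with options not given in the sources used here. Log2 of the deposited intensity was taken, with no pseudocount. Of 35556 probe sets, 21789 carried 1 gene symbol, 1621 several and 12146 none in the platform annotation, and only the first kind was used. Where a gene had several, its brightest by mean level was kept, which gave 19938 genes. G-CSF was compared with PBS in R 4.3.3 with the moderated test of limma 3.58.1 (2-sided, Benjamini-Hochberg over all genes, threshold 0.05). The p-values measure the spread between 4 pooled samples per group, and the number of arrays limits the precision. No detection call, scanner file or scan date was used here. The script was tested on simulated data.

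The members and gene lists were chosen with earlier results of these data known, so no list test was run. Genes described array by array were the 12 with the lowest p, those with an outlying array, and Irf1, Irf9, Stat2, Usp18, Ifit1, Mx1, Oas1a and Isg20. Pathway genes were named if past the threshold or at an unadjusted p under 0.05, with Irf7, Ifngr1 and Ifitm1. Further names complete a role group. Markers of B cells, T and NK cells, and erythroid cells were checked too: their mean log2 levels overlapped between the groups, at 5.27 to 5.72, 4.79 to 5.51 and 7.17 to 8.21 after PBS and 5.06 to 5.42, 5.00 to 5.36 and 7.06 to 7.76 after G-CSF. At an unadjusted p under 0.05 in limma's test, 2 of 9 B cell markers were lower and 0 higher, against 2.94% and 6.07% of all genes. For T and NK cells and for erythroid cells it was 0 in either direction. Alternatives covered moderation, a replicate block, array weights, dim genes, normalization, centring, probe sets, an offset, a neutrophil covariate and each array left out.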

Additional observations from a re-analysis of the deposited data

Results flagged for a closer look

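Among the 36 effector genes, 3 of the 72 groups of 4 values held an array far from the others by Dixon's ratio, where chance alone gives about 1 in 20. Irf1 was 5.98 in PBS replicate 3, against 7.70 to 7.74 in the other PBS arrays. Rtp4 was 7.38 in PBS replicate 2, against 8.20 to 8.31. Trim21 was 7.11 in G-CSF replicate 1, against 7.62 to 7.71. Of the pathway genes named, Ifitm2 was 9.13 in PBS replicate 3, against 10.67 to 10.92 in the other PBS arrays.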

How the results depend on the processing

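In each of the 19 alternatives with a new fit, 0 of the effector genes passed the threshold in either direction (lowest limma adjusted p = 0.19, that of Isg20), and 0 passed at an adjusted p under 0.1. With only the 9969 brighter genes in the fit, 5 of the 36 were not tested. The sign was kept in every alternative that tested the gene by 14, 11 positive and 3 negative (Usp18, Xaf1 and Mx1). Other moderation, the replicate block and the choice of genes in the fit leave the estimate unchanged, so the sign could not turn there. The replicate numbers are not said to mark shared days or mice, so whether they pair the samples is not known. Same-number correlations of the deviations within groups were -0.03 to 0.14, and the highest with another number 0.05 to 0.27. With the replicate block, 1 gene was higher and 2 lower at an unadjusted p under 0.05 (6.67% and 2.95% of all genes). That count was 1 lower with trend and robust moderation (3.56%), 1 lower with array weights (3.64%), and 0 higher and 1 lower after quantile normalization with PBS replicate 3 left out (6.13% and 2.86%). With each array left out it was 0 to 2 higher and 0 to 2 lower (4.05% to 7.48% and 1.55% to 3.81% of all genes), the groups did not overlap for 0 to 2 genes higher and 0 to 3 lower (4.06% to 6.22% and 3.86% to 7.03%), 14 to 23 genes were positive, and the median was -0.06 to 0.14. With the neutrophil covariate, 31 were positive, the median was 0.42, 4 were higher, and the sign turned for 11 of the 36, Ifit1 (0.0457), Isg20 (0.42), Oasl1 (0.0495), Rsad2 (0.21), Rtp4 (0.66), Ifi27 (0.25), Mx2 (0.81), Iigp1 (0.38), Eif2ak2 (0.26), Parp14 (0.19) and Dtx3l (0.43), and for the receptor gene Ifngr1 (-0.26). After quantile normalization with PBS replicate 3 left out it turned for 8 of the 36, Irf9 (-0.0938), Stat2 (-0.13), Trim21 (-0.12), Irgm1 (-0.27), Adar (-0.0907), Gbp3 (-0.0121), Trim25 (-0.0119) and Cmpk2 (2.61e-04). With array weights it turned for Stat2 (-0.0243), Irgm1 (-0.20) and Adar (-0.0182), and after quantile normalization of all 8 arrays for 6 genes. With 1 array left out, the values ran from -0.0636 to 0.60 for Irf9, -0.0933 to 0.35 for Stat2, -0.0885 to 0.56 for Trim21, -0.41 to 0.17 for Rtp4 and -0.52 to 0.19 for Ifit1. The cause was not tested. Over all genes, 19 passed, against 0 with all probe sets in the fit or with the neutrophil covariate, 10 after quantile normalization and 40 with array weights (37 higher and 3 lower), and 3 to 31 with each array left out, from without G-CSF replicate 2 to without G-CSF replicate 3.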
